A study of Mus musculus with 6 samples.

Results

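The late cornified envelope and filaggrin genes encode the proteins that turn a living keratinocyte into the dead, sealed cell of the skin surface. They were taken from the deposited gene table by name: every gene whose symbol starts with Lce, and Flg, Flg2, Hrnr, Rptn, Lor, Ivl, Crct1, Lelp1, Kprp, Cnfn, Cdsn, Casp14, Asprv1, Tchhl1, Sbsn, Dmkn and Krtdap. This gave 38 of the 33308 genes in the table. They fall into 7 families: 14 LCE1 genes, 6 LCE3 genes, the single LCE6 gene, 5 S100 fused-type genes (Flg, Flg2, Hrnr, Rptn, Tchhl1), 6 other envelope precursors (Lor, Ivl, Crct1, Lelp1, Kprp, Cnfn), the adhesion protein corneodesmosin with 2 proteases (Cdsn, Casp14, Asprv1), and 3 neighbouring genes of chromosome 7 (Sbsn, Dmkn, Krtdap).

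Skin was taken from mice given osimertinib for 42 days (3 samples) and from untreated mice (3 samples), and polyadenylated RNA was sequenced. Osimertinib blocks the kinase of the epidermal growth factor receptor and is used against lung cancer, and the series names skin problems caused by the drug as its subject. Strain, age, sex, dose, route and body site are not stated in the labels. Whether each sample was a different mouse is not stated either, and the p-values below therefore cover only sample-to-sample spread, part of which may be technical.

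During terminal differentiation a keratinocyte leaves the basal layer, switches from keratins 5 and 14 to keratins 1 and 10, and then makes the proteins of the granular layer. Loricrin, involucrin and the LCE proteins are cross-linked by transglutaminases under the plasma membrane to form the cornified envelope, while profilaggrin is stored in granules, cut into filaggrin that bundles keratin filaments, and finally broken down to the amino acids that keep the surface moist. Most of these genes lie side by side in the epidermal differentiation complex, and loss of filaggrin in people causes ichthyosis vulgaris and predisposes to eczema.

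The libraries held 59877553 to 60719064 counts in osimertinib skin and 54112624 to 57174797 counts in control skin, so that 3 counts, the most that a count of 0 allows, are a level of 0.0467 to 0.0663 CPM (counts scaled to the size of the library). A list of skeletal muscle genes took 5.7% to 9.41% of the count in the osimertinib libraries, against 5.7% in control 1, 17% in control 2 and 0.0875% in control 3. Basal keratinocyte genes took 1.01% to 1.76% in osimertinib skin and 0.83% to 3.63% in control skin, the highest in control 3, and all 8 tested genes of that list had a negative fold change (median log2 −1.09). Genes of the hair shaft and inner root sheath took 0.133% to 1.09% in osimertinib skin, highest in osimertinib 2, and 0.00575% to 0.0407% in control skin. In whole skin, fewer cells of a type and less RNA per cell cannot be told apart.

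Together the 38 genes made up 0.887%, 0.396% and 0.0915% of the count in osimertinib 1, 2 and 3, against 1.34%, 0.493% and 1.25% in controls 1, 2 and 3. Osimertinib 3 stood far below every control, osimertinib 2 slightly below the lowest control, and osimertinib 1 between the controls, so the groups overlapped. The 95% Wilson interval of each of these 6 shares lay within 0.835% of its value, and those of the families named below within 20.8%. These intervals and the limits for a count of 0 cover counting error only. Suprabasal keratinocyte genes, a list of keratins and adhesion genes of the layers just above the basal one, took 0.479%, 0.236% and 0.0673% in osimertinib skin, against 0.888%, 0.248% and 0.91% in control skin, and were thus lowest in the same library. Of the 9 tested genes of that list 8 had a negative fold change (median log2 −1.30), and its part in the values of the 38 genes was not tested. Set against the count of the basal keratins Krt5 and Krt14, the 38 genes reached 58%, 44.4% and 8.73% in osimertinib 1, 2 and 3, against 112%, 73.9% and 41.7% in controls 1, 2 and 3. On that scale osimertinib 2 lay just above the lowest control, and osimertinib 3 remained the lowest of the 6 libraries.

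**Figure D1:**
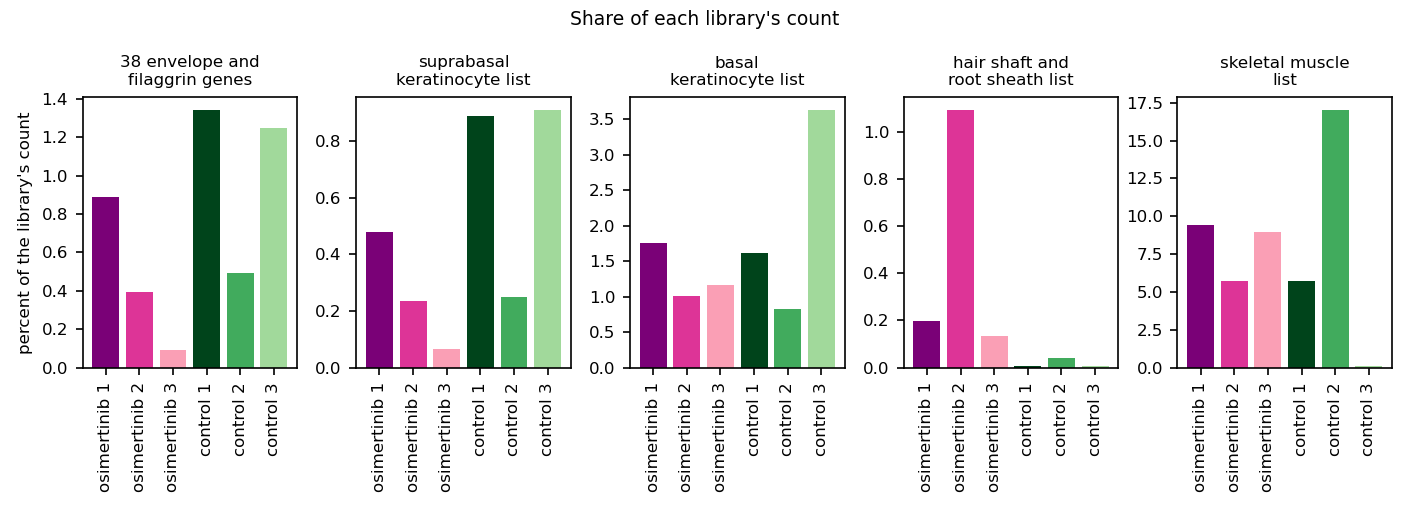
Bars give the percent of each library's total count (y axis, from 0, scaled separately in each panel) held by the 38 envelope and filaggrin genes and by 4 marker lists, in 3 osimertinib and 3 control libraries. The 38 genes and the suprabasal list were lowest in osimertinib 3, at 0.0915% and 0.0673%, while the muscle list was lowest in control 3, at 0.0875%.

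No gene of the set passed the main test. Of the 38 genes, 34 had a mean of at least 1 FPKM (fragments divided by the gene's length and the library's size) over the 6 libraries and were tested with the quasi-likelihood test of edgeR within a fit of all 13498 genes that passed that filter. With Benjamini-Hochberg adjustment over all of them, edgeR called 0 of the 34 higher, where 0% of all tested genes were called higher, and 0 lower, where 0% were called lower. At an unadjusted p under 0.05 edgeR had 2 of the 34 higher and 0 lower, against 1883 of all tested genes in either direction. DESeq2 also called 0 of the 34 in either direction, while it called 3.41% of all genes higher and 2.95% lower. Every osimertinib library lay above every control for 2 of the 34, Lce3f and Rptn, against 11.3% of all tested genes, and below every control for 0 of the 34, against 9.38%. Neither count exceeded the background.

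By fold change, osimertinib over control, 26 of the 34 tested genes were negative and 8 positive, with a median log2 fold change of −0.75, beside a median of −0.05 over all 13498 genes. Among the positive genes, Lce3d, Lce3f, Rptn and Tchhl1 passed the filter only through the osimertinib libraries, so their sign was built into the selection. With a minimum of 5 FPKM, 30 of the genes were tested, 4 positive and 26 negative. That minimum selects on sign as well. Flg and Hrnr passed it only through the controls, with osimertinib means of 4.367 and 4.096 FPKM. Lce3c passed it only through the osimertinib libraries, with a control mean of 3.583 FPKM. The median was −0.78 for LCE1, −1.12 for the other envelope precursors, −1.39 for the Sbsn, Dmkn and Krtdap group, −0.69 for the fused-type genes and −0.37 for corneodesmosin and the proteases, and it was 1.79 for the 3 tested LCE3 genes. These medians rested on single libraries to a large degree. Leaving out osimertinib 3 brought the median of the 34 genes to −0.24, with 15 positive and 19 negative, and leaving out osimertinib 1 brought it to −1.70, with 4 positive and 30 negative. Without osimertinib 3 the median was −0.17 for the fused-type genes and 0.19 for corneodesmosin and the proteases. Without osimertinib 1 it was −1.52 for the fused-type genes, −1.14 for corneodesmosin and the proteases and 0.62 for LCE3. Leaving out control 1 brought corneodesmosin and the proteases to −0.20.

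The 3 osimertinib libraries differed widely from each other. In osimertinib 1, 18 of the 34 genes lay above all 3 controls and 0 below, and the median gene stood at 122% of its control mean. In osimertinib 2, 4 lay above and 24 below all controls, with a median of 53.1%. In osimertinib 3, 3 lay above and 30 below, and the median gene stood at 10.9% of its control mean. Over all tested genes the same medians were 97.3%, 93.5% and 97.8% in osimertinib 1, 2 and 3. Of all tested genes, 19.5%, 26.8% and 22.8% lay above all controls in these libraries, and 19.8%, 26.9% and 23.4% below. The 3 genes above all controls in osimertinib 3 were Lce3d, Lce3f and Rptn, and the gene within the range of the controls was Tchhl1. Each of these genes passed the filter on low values only through the osimertinib libraries, so no support is drawn from their places. Lce3d had 0.4889 CPM (30 counts) in osimertinib 3, against 0.4886 CPM (31 counts) in control 3.

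**Figure D2:**
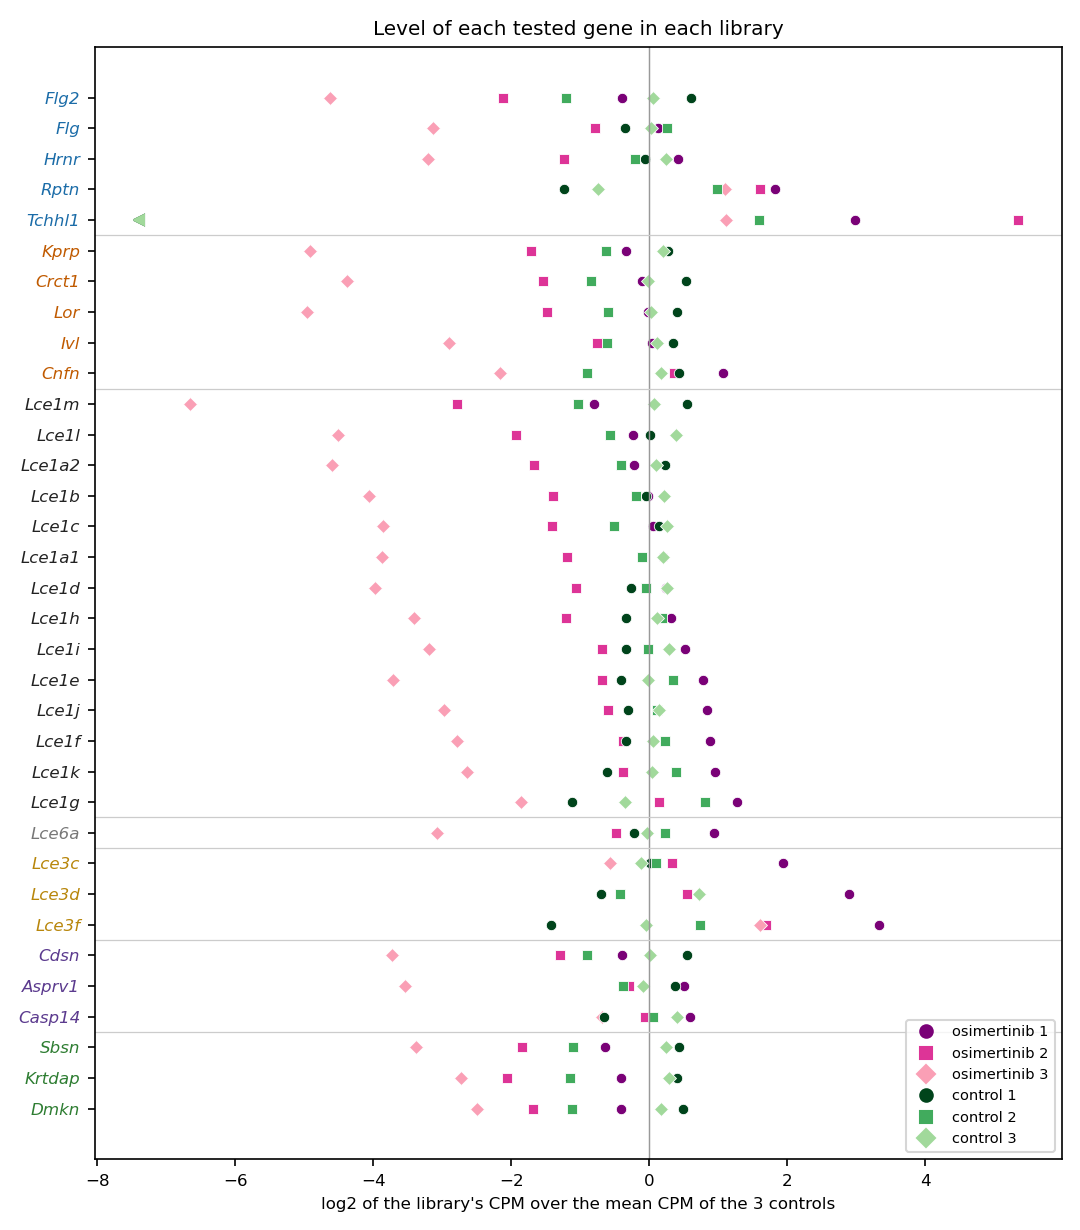
Each point is the log2 of a library's CPM over the mean CPM of the 3 controls (x axis) for each of the 34 tested genes (y axis, by family). Osimertinib 3 lies to the left of all controls for 30 genes and osimertinib 1 for none, and the arrow for Tchhl1 marks controls 1 and 3, where its count was 0.

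Filaggrin itself (Flg, ENSMUSG00000102439, chromosome 3, 93273523 to 93293686, plus strand, GRCm38) encodes the precursor of the keratin-bundling protein. It had 174.7, 92.54 and 18.11 CPM in osimertinib 1, 2 and 3, against 124.7, 191.2 and 161.7 CPM in controls 1, 2 and 3. Osimertinib 1 lay within the controls and the other 2 osimertinib libraries below them. Its log2 fold change of −0.74 ± 0.72 (SE, n = 3 per group) was about the size of its error and did not pass (adjusted p = 0.720, edgeR with Benjamini-Hochberg adjustment).

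Filaggrin-2 (Flg2), a related repeat protein needed for cell cohesion in the horny layer, had 305.6, 92.05 and 16.13 CPM in osimertinib skin, against 611.5, 173 and 417.9 CPM in control skin. The groups overlapped, since osimertinib 1 was above control 2 (log2 fold change −1.54 ± 1.01, SE, n = 3 per group, edgeR adjusted p = 0.548). The balance of the 2 filaggrins varied within both groups. The log2 ratio of the Flg2 count to the Flg count was 0.81, −0.01 and −0.17 in osimertinib 1, 2 and 3, against 2.29, −0.14 and 1.37 in controls 1, 2 and 3, and control 2 lay next to osimertinib 2 and 3.

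Hornerin (Hrnr), another repeat protein of the granular layer and envelope, had 114.3, 36.62 and 9.338 CPM in osimertinib skin and 82.26, 74.13 and 101.3 CPM in control skin. Osimertinib 1 was the highest and osimertinib 3 the lowest of the 6 libraries (log2 fold change −0.69 ± 0.80, edgeR adjusted p = 0.778). Per length, the 3 genes were at lower levels than every LCE1 gene. Their means over the 6 libraries were 11.19 FPKM for Flg2, 5.641 FPKM for Flg and 5.288 FPKM for Hrnr.

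Repetin (Rptn, ENSMUSG00000041984, chromosome 3, 93393699 to 93399442, plus strand) was one of the 2 genes whose groups did not overlap. It is a fused-type protein that in people is known from the inner root sheath and the papillae of the tongue. It had 12.34, 10.61 and 7.497 CPM in osimertinib 1, 2 and 3, against 1.479, 6.916 and 2.096 CPM in controls 1, 2 and 3. All 3 osimertinib libraries lay above control 2, the highest control, by a small margin in osimertinib 3. The log2 fold change was 1.54 ± 0.62 (SE, n = 3 per group), with an unadjusted p of 0.0467, and it did not pass adjustment (adjusted p = 0.350 in edgeR and 0.176 in DESeq2). Without control 2 it was 2.52, and without control 1 it was 1.17.

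Tchhl1 encodes a trichohyalin-like protein of the same family. It had 7.081, 36.56 and 1.939 CPM in osimertinib skin, against 0, 2.696 and 0 CPM in control skin, where only control 2 had any count, 122. Osimertinib 3 was below control 2, so the groups overlapped (fitted log2 fold change 4.10 ± 2.14, edgeR adjusted p = 0.447). With libraries scaled to their Krt5 and Krt14 counts it passed in edgeR, at 3.99 (adjusted p = 0.0103). The value rested on single libraries: it was 2.34 without osimertinib 2, and 12.86 without control 2, which leaves only controls at 0 and is no bound. Tchhl1 was highest in osimertinib 2 and, among the controls, in control 2, which were also the libraries with the highest share of hair shaft and root sheath genes, 1.09% and 0.0407%. Those shares were 0.198% and 0.133% in osimertinib 1 and 3, against 0.00575% and 0.00767% in controls 1 and 3, and their part in the Tchhl1 and Rptn values was not tested.

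The starts of 4 of the 5 fused-type genes hold the same short word, TGANTCA, the site bound by AP-1 transcription factors, which reads the same on both strands. Promoter sequences from RefSeq (GRCm38.p6, 250 bases before to 50 after the start) were found for 35 of the 38 genes, as 38 promoters, and not for Crct1, Kprp and Lce1f. TGANTCA was present in 11 of these 38 promoters (28.9%) and in 7.81% of 32851 mouse promoters of the same length. Dermokine is counted more than once among the 11, with overlapping promoters, so this is not a share of genes. The 4 starts are shown because they share the word, although Flg and Flg2 had negative and Rptn and Tchhl1 positive fold changes. They run from 130 bases before to 20 bases after the RefSeq start on GRCm38.p6, at chr3:93273416-93273565 (plus strand) for Flg, chr3:93197143-93197292 (plus strand) for Flg2, chr3:93393569-93393718 (plus strand) for Rptn and chr3:93468624-93468773 (plus strand) for Tchhl1, 5′ to 3′, with matches to TGANTCA and to the TATA box word TATAAA, searched on both strands, in capitals:
Flg: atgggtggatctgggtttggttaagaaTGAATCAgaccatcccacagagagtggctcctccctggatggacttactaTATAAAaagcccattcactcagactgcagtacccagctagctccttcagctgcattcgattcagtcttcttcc
Flg2: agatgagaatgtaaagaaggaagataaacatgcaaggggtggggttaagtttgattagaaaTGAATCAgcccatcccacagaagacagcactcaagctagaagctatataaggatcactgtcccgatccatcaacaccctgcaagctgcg
Rptn: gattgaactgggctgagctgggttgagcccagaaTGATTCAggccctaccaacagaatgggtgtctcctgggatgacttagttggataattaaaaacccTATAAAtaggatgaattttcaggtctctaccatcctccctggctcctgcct
Tchhl1: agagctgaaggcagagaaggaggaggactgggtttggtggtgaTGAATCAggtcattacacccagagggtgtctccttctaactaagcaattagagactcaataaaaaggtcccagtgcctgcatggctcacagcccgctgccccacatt
The word began at position −103 in Flg, −69 in Flg2, −96 in Rptn and −87 in Tchhl1, counted from the start. In Flg, Flg2 and Tchhl1 it was spelled TGAATCA and in Rptn TGATTCA. On either strand TATAAA was in 26.3% of the 38 promoters and in 13.6% of all promoters. A match is a description of the letters and not evidence of binding.

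Loricrin (Lor, ENSMUSG00000043165, chromosome 3, 92080271 to 92083142, minus strand), the main protein of the epidermal envelope, had the highest level per length of the 38 genes, with a mean of 816 FPKM. It had 2303, 831.6 and 75.11 CPM in osimertinib 1, 2 and 3, against 3072, 1543 and 2376 CPM in controls 1, 2 and 3. Osimertinib 1 lay within the controls, and osimertinib 2 and 3 below them. The log2 fold change was −1.12 ± 1.05 (SE, n = 3 per group, edgeR adjusted p = 0.701).

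Involucrin (Ivl), the scaffold on which the envelope is first assembled, had 62.9, 36.09 and 8.197 CPM in osimertinib skin and 77.93, 39.91 and 65.88 CPM in control skin. The groups overlapped through osimertinib 1 (log2 fold change −0.78 ± 0.68, edgeR adjusted p = 0.678). Relative to the keratin Krt10, involucrin was higher in osimertinib skin, at log2 ratios of −4.74, −4.36 and −4.37, against −5.34, −4.75 and −5.32 in control skin. The groups were separated on that ratio by a margin between osimertinib 1 and control 2 that was smaller than the spread within either group.

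The remaining precursors gave the same order of the osimertinib libraries. Crct1, a small cysteine-rich protein gene of the complex, and Kprp, a proline-rich keratinocyte protein, had log2 fold changes of −1.18 ± 0.95 and −1.41 ± 0.97. Cornifelin (Cnfn), an envelope component encoded on chromosome 7, had 194.7, 118.4 and 20.7 CPM in osimertinib skin, against 124.3, 49.67 and 103.7 CPM in control skin. Osimertinib 1 was the highest and osimertinib 3 the lowest of the 6 libraries, and its log2 fold change of 0.27 ± 0.76 turned negative, to −0.41, without osimertinib 1. The median over the 5 tested precursors was −1.12, −2.35 without osimertinib 1 and −0.55 without osimertinib 3. Lelp1 had a count of 0 in all 6 libraries.

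Loricrin and involucrin also have TGANTCA near the start, and their sequences are shown beside those of the fused-type genes for that reason. The windows of the same length lie at chr3:92083123-92083272 (minus strand) for Lor and chr3:92573716-92573865 (minus strand) for Ivl, with the same words in capitals, both genes being read on the minus strand:
Lor: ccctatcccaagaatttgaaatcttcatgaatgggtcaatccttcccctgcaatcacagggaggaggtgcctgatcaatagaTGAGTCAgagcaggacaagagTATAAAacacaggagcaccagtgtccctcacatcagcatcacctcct
Ivl: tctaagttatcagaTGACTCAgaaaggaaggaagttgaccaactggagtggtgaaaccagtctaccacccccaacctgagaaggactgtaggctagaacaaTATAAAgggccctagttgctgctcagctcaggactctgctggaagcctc
The word began at −48 in Lor and −116 in Ivl, and TATAAA at −27 and −29. Of the other precursors with a promoter, Cnfn and Lelp1 held no TGANTCA.

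**Figure D3:**
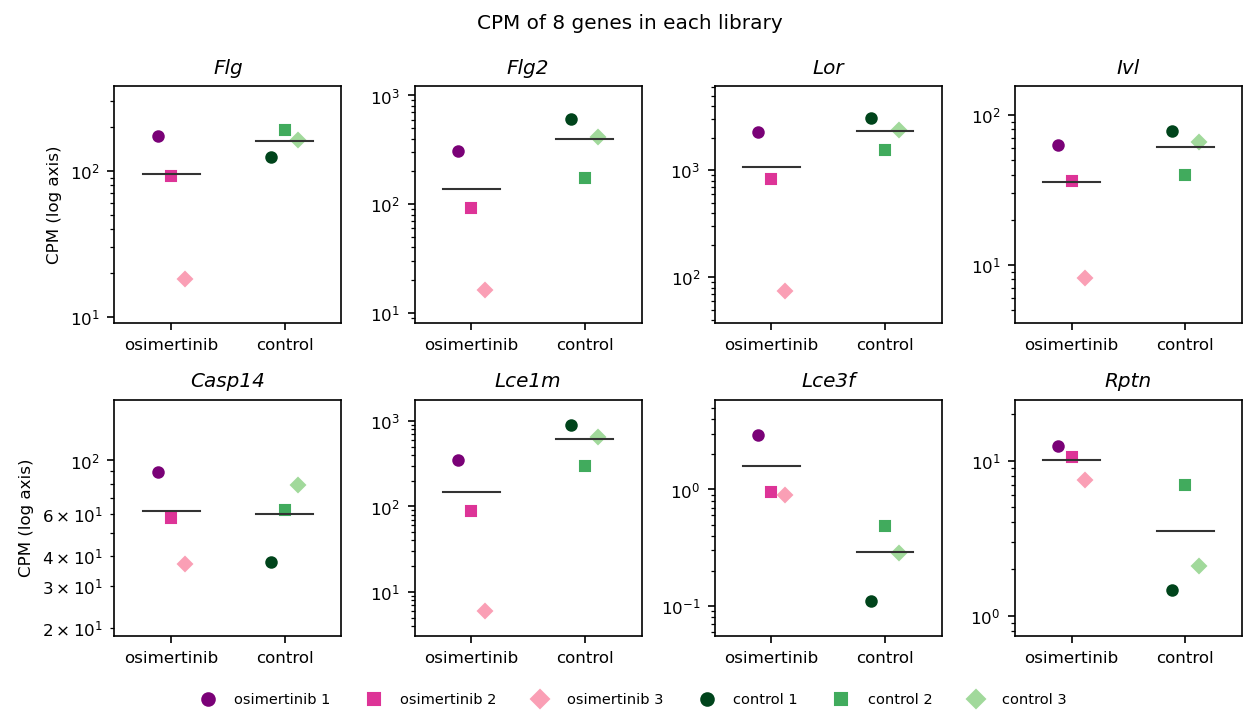
CPM on a log axis for 8 genes, with 3 osimertinib libraries left of 3 control libraries and a line at each group's mean. Loricrin ran over 75.11 to 2303 CPM in osimertinib skin and 1543 to 3072 CPM in control skin, and of the 8 genes only Lce3f and Rptn have groups that do not overlap.

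The LCE proteins are short, cysteine-rich proteins that are cross-linked late into the envelope. All 14 LCE1 genes were tested, and they made up 0.172%, 0.0671% and 0.00956% of the count in osimertinib 1, 2 and 3, against 0.217%, 0.113% and 0.232% in controls 1, 2 and 3. Osimertinib 2 and 3 lay below every control and osimertinib 1 between them. Log2 fold changes ran from −2.04 to 0.34 with 13 of the 14 negative, and none passed. The median of −0.78 became −1.90 without osimertinib 1 and −0.25 without osimertinib 3.

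Lce1m (ENSMUSG00000027912, chromosome 3, 93017810 to 93019060, minus strand), the LCE gene with the highest level per length (a mean of 344.3 FPKM), had the lowest fold change of the 34 tested genes. It had 350.4, 88.35 and 6.03 CPM in osimertinib skin, against 892.1, 297 and 641.7 CPM in control skin. Osimertinib 1 was above control 2, so the groups overlapped, and osimertinib 3 stood at 0.988% of the control mean (log2 fold change −2.04 ± 1.24, SE, n = 3 per group, edgeR adjusted p = 0.519).

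Lce1a1 had 280.5, 107.1 and 16.69 CPM in osimertinib skin and 225.7, 225.8 and 279.5 CPM in control skin. Lce1a2 had 232.3, 84.6 and 11.2 CPM in osimertinib skin and 317.1, 203.5 and 289.8 CPM in control skin. Lce1b had 215.4, 82.26 and 13.02 CPM in osimertinib skin and 210.7, 189.6 and 250.8 CPM in control skin. In each of these 3 genes osimertinib 2 and 3 were below every control and osimertinib 1 lay within the controls or just above them, with log2 fold changes of −0.85 ± 0.86, −1.30 ± 0.93 and −1.07 ± 0.86.

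At the other end of the family, Lce1g had 39.5, 17.93 and 4.482 CPM in osimertinib skin and 7.467, 28.66 and 12.78 CPM in control skin. Its controls spread widely, and its log2 fold change of 0.34 ± 0.82 was within its error. Osimertinib 3 lay below every control for all 14 LCE1 genes, at 0.988% to 27.5% of the control mean with a median of 7.28%. In osimertinib 1 the family ran over 57.4% to 242% of the control mean with a median of 122%, and in osimertinib 2 over 14.5% to 110% with a median of 46%. The single LCE6 gene, Lce6a, had 28.17, 10.58 and 1.744 CPM in osimertinib skin and 12.65, 17.26 and 14.4 CPM in control skin, with osimertinib 1 highest and osimertinib 3 lowest (log2 fold change −0.13 ± 0.85).

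The LCE3 genes, which in human skin are known for being induced in psoriasis and after damage to the barrier, were at far lower levels. All 6 together took 0.00157%, 0.000528% and 0.000389% of the count in osimertinib 1, 2 and 3, against 0.000286%, 0.000278% and 0.000446% in controls 1, 2 and 3. Osimertinib 1 and 2 lay above every control, and osimertinib 3 was below control 3. A list of wound keratinocyte genes took 0.205%, 0.235% and 0.261% in osimertinib skin against 0.123%, 0.0821% and 0.252% in control skin, and its part in the LCE3 values was not tested. Of the 6, 3 passed the filter on low values, namely Lce3c, Lce3d and Lce3f, of which Lce3d and Lce3f passed only through the osimertinib libraries, as did Rptn and Tchhl1, each with a control mean under 1 FPKM. A positive fold change was built into that selection, and no support is drawn from their counts or median.

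Lce3f (ENSMUSG00000068885, chromosome 3, 92992226 to 92993426, plus strand) had 2.963, 0.9502 and 0.8963 CPM in osimertinib skin, against 0.1095, 0.4861 and 0.2837 CPM in control skin. The groups did not overlap. These levels rest on 172, 61 and 55 counts in the osimertinib libraries, against 6, 22 and 18 counts in the controls. The log2 fold change of 2.45 ± 0.74 (SE, n = 3 per group) had the smallest p of the 34 genes, 0.015 unadjusted, and did not pass adjustment (adjusted p = 0.273 in edgeR and 0.0584 in DESeq2). Of the windows of 150 bases along its transcripts, 36.8% were shared with another gene, Lce3c, Lce3d or Lce3e, so reads could have been divided between these genes.

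Lce3c had 9.475, 3.115 and 1.662 CPM in osimertinib skin and 2.501, 2.652 and 2.269 CPM in control skin. Osimertinib 3 was the lowest and osimertinib 1 the highest library, and the log2 fold change of 0.94 ± 0.64 became −0.05 without osimertinib 1. Lce3d had 2.205, 0.4362 and 0.4889 CPM in osimertinib skin and 0.1826, 0.2210 and 0.4886 CPM in control skin. Osimertinib 1 stood out and the other osimertinib libraries lay close to control 3 (log2 fold change 1.79 ± 0.79, edgeR adjusted p = 0.382). Lce3e, which was not tested, had 1.24, 0.1869 and 0.3259 CPM in osimertinib skin and 0.03651, 0.1326 and 0.5043 CPM in control skin, with osimertinib 1 the highest library and control 3 next. Lce3a had 14, 4 and 15 counts in osimertinib skin against 0, 0 and 15 in control skin, and Lce3b had 7, 14 and 14 counts in osimertinib skin against 0, 0 and 15 in control skin.

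None of the 13 LCE1 and 6 LCE3 promoters held TGANTCA. The starts of Lce1m and Lce3f, the LCE genes with the lowest and the highest fold change, are shown for comparison with those above, at chr3:93019042-93019191 (minus strand) and chr3:92992087-92992236 (plus strand), with the TATA box word in capitals:
Lce1m: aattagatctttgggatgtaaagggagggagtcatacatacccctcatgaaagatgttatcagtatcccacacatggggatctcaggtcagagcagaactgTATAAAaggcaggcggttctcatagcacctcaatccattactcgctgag
Lce3f: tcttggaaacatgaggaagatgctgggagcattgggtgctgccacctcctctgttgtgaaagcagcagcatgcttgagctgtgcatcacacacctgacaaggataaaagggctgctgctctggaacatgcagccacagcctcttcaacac
TATAAA began at −29 in Lce1m, and Lce3f had no match to either word. Over the 300 bases, promoters of 2 LCE1 genes were 48.3% to 86% identical (78 pairs, median 63.7%), those of 2 LCE3 genes 53.7% to 83.3% (15 pairs, median 57%) and those of an LCE1 and an LCE3 gene 43.7% to 53.7%.

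**Figure D4:**
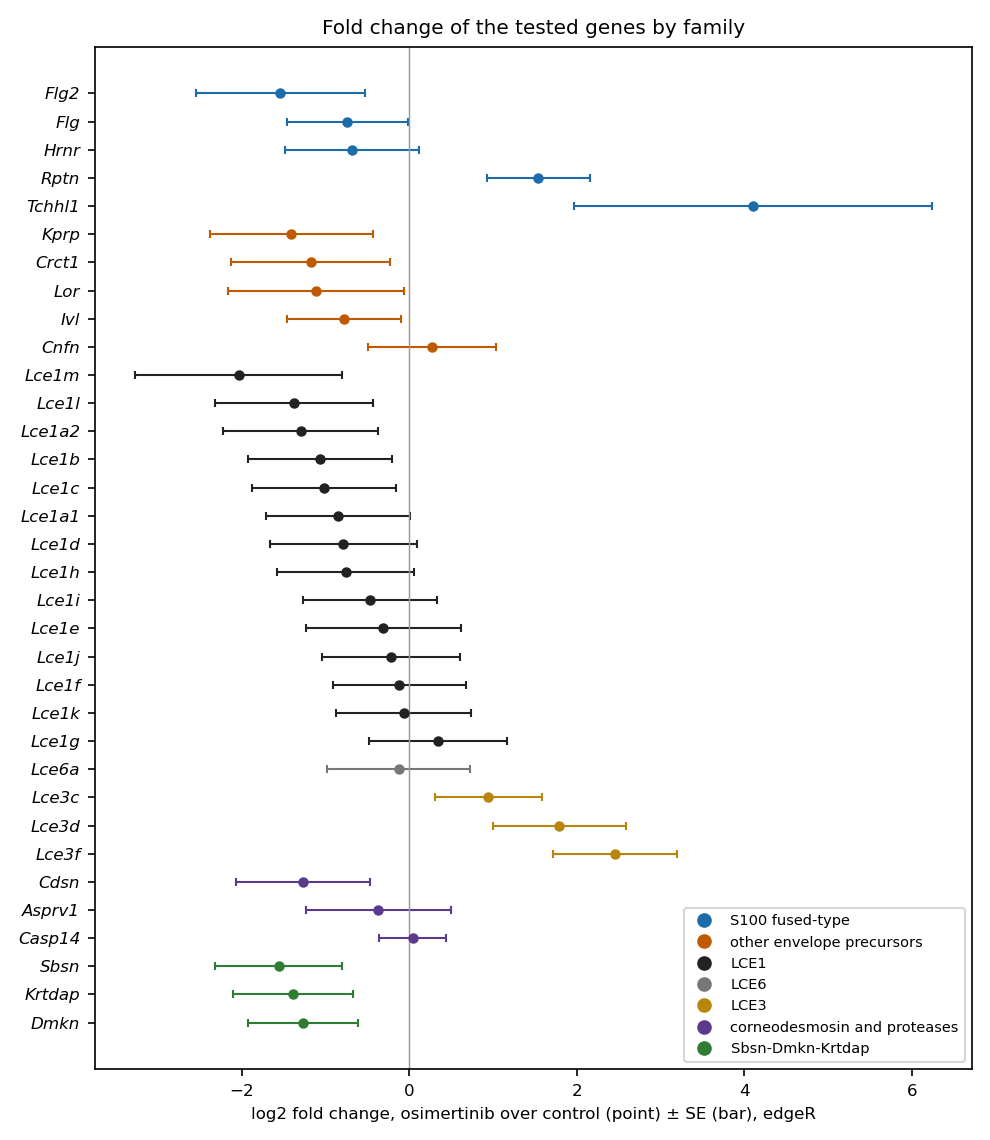
Log2 fold change, osimertinib over control (x axis, point), with its SE (bar) from edgeR for the 34 tested genes, by family. LCE1 genes run from −2.04 to 0.34 and the 3 tested LCE3 genes from 0.94 to 2.45, and no gene passed the adjusted threshold.

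Corneodesmosin and the 2 proteases act around filaggrin and the shedding of corneocytes. Corneodesmosin (Cdsn), the adhesion protein of the junctions between corneocytes, had 118.3, 63.31 and 11.77 CPM in osimertinib skin, against 227.1, 83.08 and 157 CPM in control skin. Osimertinib 2 and 3 were below every control (log2 fold change −1.27 ± 0.80, edgeR adjusted p = 0.532). Asprv1, the aspartic protease that cuts the linkers of profilaggrin, had 768.4, 443.6 and 46.58 CPM in osimertinib skin and 702.4, 413.9 and 506.6 CPM in control skin. Osimertinib 3 alone lay below the controls, and the log2 fold change of −0.37 ± 0.87 was 0.19 without that library.

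Caspase-14 (Casp14), which breaks filaggrin down to amino acids, stood at 62% of its control mean in osimertinib 3, above Cdsn and Asprv1, which were at 7.56% and 8.61%. It had 89.76, 57.42 and 36.96 CPM in osimertinib skin and 37.68, 62.16 and 79.08 CPM in control skin. The groups overlapped almost wholly (log2 fold change 0.04 ± 0.40, edgeR adjusted p = 0.984), although the sign was negative without osimertinib 1 (−0.34) or control 1 (−0.20). Set against filaggrin, caspase-14 was higher in each osimertinib library, at log2 ratios of −0.96, −0.69 and 1.03, against −1.73, −1.62 and −1.03 in control skin, with a narrow gap between osimertinib 1 and control 3.

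Of 20 such ratios computed, 4 had every osimertinib library above every control and 0 below: repetin to Krt10, repetin to filaggrin, involucrin to Krt10 and caspase-14 to filaggrin. The log2 ratio of repetin to filaggrin was −3.82, −3.12 and −1.27 in osimertinib skin, against −6.40, −4.79 and −6.27 in control skin. Among all tested single genes, 11.3% had every osimertinib library above every control and 9.38% below. Most of the ratios share Krt10 or filaggrin as denominator, so they are not independent. Repetin passed the filter on low values only through the osimertinib libraries, so no support is drawn from the ratios that hold it. With 3 libraries against 3, an exact two-sided permutation test cannot give a p below 0.1. Loricrin to Krt10 did not separate the groups, at 0.46, 0.17 and −1.17 in osimertinib skin and −0.04, 0.52 and −0.15 in control skin, nor did filaggrin to Krt10, at −3.26, −3 and −3.22 in osimertinib skin and −4.66, −2.49 and −4.03 in control skin. In osimertinib 3 the ratio of filaggrin to Krt10 lay within the controls and that of loricrin below them. Krt10 had 1679, 741.5 and 169.3 CPM in osimertinib skin and 3152, 1074 and 2640 CPM in control skin, and its part in the low envelope values was not tested.

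Suprabasin (Sbsn), dermokine (Dmkn) and Krtdap are secreted products of the suprabasal layers and lie next to each other on chromosome 7, from 30751471 to 30791097. Krtdap had 673.9, 214.3 and 134.4 CPM in osimertinib skin, against 1182, 402 and 1092 CPM in control skin. Osimertinib 2 and 3 were below every control, and osimertinib 1 was above control 2 (log2 fold change −1.39 ± 0.72, edgeR adjusted p = 0.444). Suprabasin and dermokine had log2 fold changes of −1.56 ± 0.76 and −1.27 ± 0.66. The 3 genes kept close to each other in every library: relative to the control mean they stood at 64.1% to 75.5%, 24% to 31.1% and 9.64% to 17.6% in osimertinib 1, 2 and 3, and at 133% to 141%, 45.1% to 46.6% and 113% to 122% in controls 1, 2 and 3. The median of the group of −1.39 was −2.36 without osimertinib 1 and −0.98 without osimertinib 3. All 5 promoters of the group, of which 2 of dermokine overlap, held TGANTCA. Control 2, where the genes were low, had 17% of its count in muscle genes, whose part in these values was not tested. In control 2 the median LCE1 gene stood at 97.9% of its control mean and the median fused-type gene at 120%. The median was 64.9% for the other envelope precursors and 76.5% for corneodesmosin and the proteases.

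Along chromosome 3, 31 of the 38 genes lie in the epidermal differentiation complex, taken here as the 99 genes of the table between S100a1 and S100a11 (90511034 to 93526287). Of these 31 genes 27 were tested, 21 of them with a negative and 6 with a positive log2 fold change, and a median of −0.74. The 9 tested genes of the small proline-rich (Sprr) family, which encode cross-bridging envelope proteins, had log2 fold changes of 0.51 to 4.26. The 2 largest were those of Sprr2d and Sprr2e, which passed the filter on low values only through the osimertinib libraries, with control means of 0.5447 and 0.272 FPKM, so no support is drawn from the signs of the family. Some Sprr2 genes are near-identical copies, so their reads may have been divided between them. The 12 tested S100a genes had a median of 0.15 and ran from −6.24 to 4.76. None of these genes passed in edgeR, which called 0% of all tested genes. DESeq2 calls were not counted for the 2 families, but Sprr2h passed in DESeq2 (adjusted p = 0.00013). Every osimertinib library lay above every control for 3 of the 9 Sprr genes and 5 of the 12 S100a genes, against 11.3% of all tested genes. It lay below every control for 0 Sprr genes and 1 S100a gene, against 9.38%. Sprr2d, Sprr2e and S100a7a, which are among the higher ones, passed the filter only through the osimertinib libraries. S100a7l2, the lower S100a gene, passed it only through the controls, with an osimertinib mean of 0.7106 FPKM.

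By position, the LCE3 genes sit between the other LCE1 genes and Lce1m. Repetin and Tchhl1 lie beyond hornerin, on either side of trichohyalin (Tchh), a structural protein of the inner root sheath, which had a log2 fold change of 4.21 ± 1.30. Cornulin (Crnn), another fused-type gene that lies before Flg2, had 4.31 ± 1.61, and like repetin and Tchhl1 it passed the filter only through the osimertinib libraries, with a control mean of 0.1886 FPKM. The transcript 2310050C09Rik, within the LCE stretch, had −1.42 ± 0.91.

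**Figure D5:**
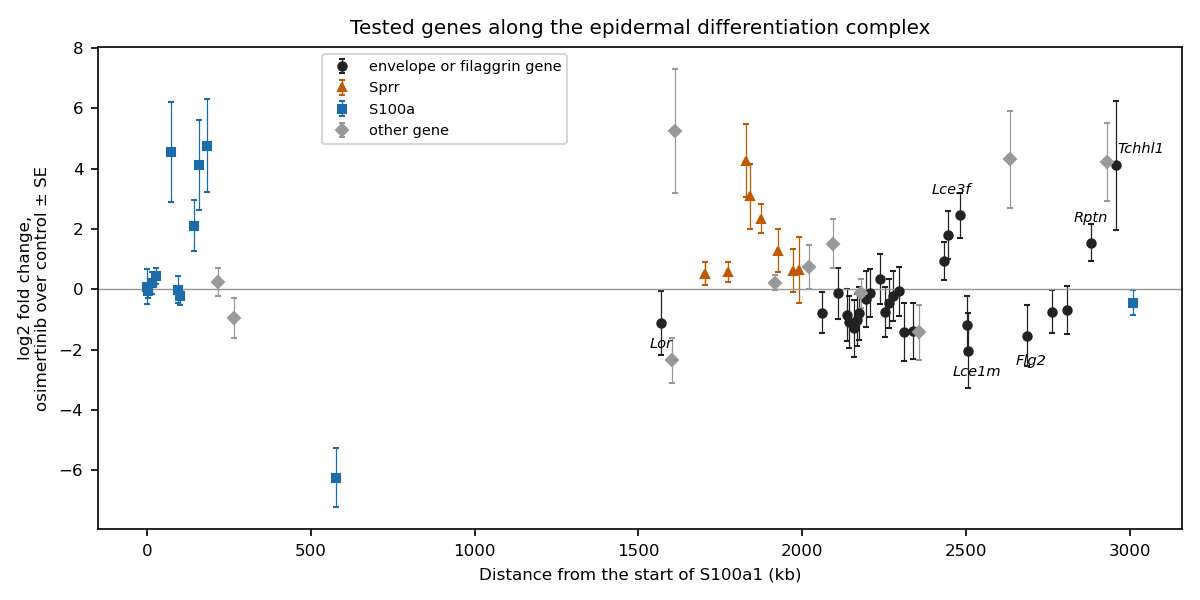
Log2 fold change, osimertinib over control (y axis, point), with its SE (bar) for the 59 tested genes of the epidermal differentiation complex by distance from the start of S100a1 in kilobases (x axis). Values run from −6.24 for S100a7l2 to 5.24 for Prr9, and Tchhl1 has the longest error bar among the envelope and filaggrin genes, with an SE of 2.14.

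Enzymes that cross-link or modify these proteins gave a mixed picture. Of 15 tested genes in a list of transglutaminases, peptidylarginine deiminases and other envelope components, 7 were positive and 8 negative (median −0.17). Of these, 0 were called by edgeR and 1 higher and 2 lower by DESeq2, which called 3.41% of all tested genes higher and 2.95% lower. Transglutaminase 5 (Tgm5) had 11.58, 6.667 and 7.578 CPM in osimertinib skin, against 48.82, 22.91 and 35.37 CPM in control skin, so every osimertinib library lay below every control (log2 fold change −2.05 ± 0.36, adjusted p = 0.179 in edgeR and 6.56e-06 in DESeq2). Sciellin (Scel), an envelope precursor, had −1.55 ± 0.44 (adjusted p = 0.260 in edgeR and 0.0156 in DESeq2). Padi3 and Padi4, which convert arginine to citrulline, had 4.74 ± 1.88 and 4.37 ± 1.27 (adjusted p = 0.344 and 0.267 in edgeR, 0.101 and 0.00203 in DESeq2). Like Tchhl1, they were highest in osimertinib 2, at 184 and 40.49 CPM, with 0.1095 to 9.435 and 0.3152 to 1.834 CPM in control skin. In both, every osimertinib library lay above every control. Of the 15 genes, 3 were separated in this direction and 2 in the other, against 11.3% and 9.38% of all tested genes. Whether Padi3 and Padi4 passed the filter on low values only through the osimertinib libraries was not checked. No support is drawn from their signs or places.

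Among 15 tested genes of filaggrin processing and desquamation, 6 were positive and 9 negative (median −0.22). Of these, 0 were called by edgeR and 1 in each direction by DESeq2, which called 3.41% of all tested genes higher and 2.95% lower. For 2 of the 15 every osimertinib library lay above every control and for 1 below, against 11.3% and 9.38% of all tested genes. Spink5, the inhibitor of the skin kallikreins whose loss causes Netherton syndrome, had 83.76, 35.52 and 22.05 CPM in osimertinib skin, against 342.4, 181.2 and 322 CPM in control skin. Every osimertinib library lay below every control (log2 fold change −2.58 ± 0.56, adjusted p = 0.204 in edgeR and 0.00013 in DESeq2). St14, the protease matriptase that acts upstream of profilaggrin processing, had 186.6, 403.7 and 160.1 CPM in osimertinib skin and 94.55, 64.26 and 100.3 CPM in control skin, every osimertinib library being above every control (1.53 ± 0.41, adjusted p = 0.257 in edgeR and 0.0103 in DESeq2). Klk13 had 1.84 ± 0.68 and Capn1 −0.48 ± 0.22. Whether Klk13 passed the filter on low values only through the osimertinib libraries was not checked.

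Of 17 tested genes of the epidermal lipid barrier, whose products make the ceramides bound to the envelope, 2 were positive and 15 negative (median −0.72). Of these, 0 were called by edgeR and 1 lower by DESeq2, which called 2.95% of all tested genes lower. The groups were separated for 0 of the 17 in either direction, against 11.3% higher and 9.38% lower among all tested genes. The smallest p were those of Sptlc3, of ceramide synthesis (−1.89 ± 0.64), the lipoxygenase Aloxe3 (−1.27 ± 0.62), the ceramidase Acer1 (−0.79 ± 0.41) and the lipid transporter Abca12 (−0.98 ± 0.57), and in all 4 the groups overlapped. Of 24 regulators of epidermal differentiation, 8 were positive and 16 negative (median −0.31). Of these, 0 were called by edgeR and 2 higher by DESeq2, which called 3.41% of all tested genes higher. Every osimertinib library lay above every control for 2 of the 24 and below for 2, against 11.3% and 9.38% of all tested genes. Cebpb, a factor of the suprabasal layers, had 0.74 ± 0.21 (adjusted p = 0.260 in edgeR and 0.023 in DESeq2). The chromatin organiser Satb1 had −0.91 ± 0.36 and the ligand-activated factor Ahr −1.23 ± 0.45. Every osimertinib library lay above every control for Cebpb and below for Satb1, and the groups overlapped for Ahr.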

How the data were processed

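Per the labels' protocols, polyadenylated RNA was made into libraries whose second strand carried dUTP and whose adapters held molecular identifiers, and read as pairs of 150 bases. The submitters' processing notes name cutadapt 1.9 and, as genome build, GRCm38. Not given in the sources used here are the aligner, counter, annotation, strand setting and use of the identifiers, so reads shared by near-identical genes may have been divided in an unknown way. The deposited table gives each gene's raw count, a whole number, and beside it the FPKM value that the authors computed, per the file headers. A further 6 columns of values match no sample and were not used.

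Groups and replicate numbers come from the sample titles. Genes with a mean of at least 1 FPKM over the 6 libraries (13498) were tested on the counts with edgeR 4.0.16 in R 4.3.3 (quasi-likelihood, TMM scaling, no covariate, two-sided, Benjamini-Hochberg over all genes, threshold 0.05). The SE is the size of the log2 fold change over the square root of F. CPM use TMM-scaled library sizes of the tested genes, and shares use the full count. The fit was first tested on simulated counts. Alternatives were DESeq2 1.42.0, limma 3.58.1 on log2(FPKM + 1) and log2(FPKM + 0.1), other scalings and filters, a muscle covariate, a replicate block and leaving out libraries. Of the IDs in the table, 33211 of 33308 were found in GENCODE mouse release M21, which served to count transcript windows of 150 bases that genes share. All genes of the set could be named; values per library were given for the main members of each family and, among LCE1 and LCE3 genes, for those with the highest mean FPKM (up to 4 each), and up to 4 genes with the smallest p were named from each of the 4 lists of barrier genes, with 1 gene that this takes not reported here. Lists of cell type markers are given mainly by their shares of the count, and their genes with the smallest p are not printed, apart from Sprr2h. Values per library of Tchhl1, Cnfn, Lce1g and Lce6a were added after they had been seen. The genes and lists were chosen with earlier results of these data known.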

Additional observations from a re-analysis of the deposited data

How the results depend on the processing

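Over all genes, where edgeR called 0 in either direction, DESeq2 called 460 higher and 398 lower, scaling to the Krt5 and Krt14 counts 238 and 28, limma on log2(FPKM + 1) 12 and 5, limma on log2(FPKM + 0.1) 1 and 1, a minimum of 5 FPKM 0 and 2, and the muscle covariate 0 and 1. Scaling to Krt5 and Krt14 shifted the median of all genes to 0.15 and was the only alternative run that called one of the 34 genes, Tchhl1 (3.99, adjusted p = 0.0103). The LCE3 median of 1.79 was 0.92 with a minimum of 5 FPKM, which leaves Lce3c alone, 0.76 with limma on log2(FPKM + 1), and 0.62 to 2.35 on leaving out each library, lowest without osimertinib 1. Lce3c passed the minimum of 5 FPKM only through the osimertinib libraries, with a control mean of 3.583 FPKM. No support is drawn from the 0.92. Same-numbered libraries correlated at 0.24, −0.06 and −0.16 in their deviations from the group means, where all combinations ran from −0.24 to 0.24. No pairing by number was evident, but deviations within groups of 3 cannot exclude one. With the replicate block edgeR called 0 genes, the median of the 34 genes was −1.25, and Cnfn (−0.05) and Lce1g (−0.03) changed sign. Cnfn was also −0.05 with both limma fits. Leaving out each library changed the sign of 11 genes, with ranges of −1.14 to 0.19 for Asprv1, −0.34 to 0.32 for Casp14, −0.41 to 0.79 for Cnfn, −1.52 to 0.23 for Lce1e, −1.13 to 0.39 for Lce1f, −0.54 to 1.03 for Lce1g, −1.45 to 0.05 for Lce1i, −1.34 to 0.30 for Lce1j, −1.11 to 0.44 for Lce1k, −0.05 to 1.36 for Lce3c and −1.26 to 0.40 for Lce6a. Leaving out both libraries numbered 3, an alternative chosen after seeing the data, gave a median of −0.16 over the 34 genes and 2.69 over LCE3, and positive values for Asprv1 (0.13), Lce1e (0.20), Lce1f (0.40), Lce1i (0.20), Lce1j (0.36), Lce1k (0.45) and Lce6a (0.37). The cause of these shifts was not tested. Depth limits the LCE3 genes, with 0 to 32 counts per control library for 5 of the 6.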
